A study of Homo sapiens with 4 samples.

Results

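Intergenic progesterone receptor (PR) binding sites that lie near a gene were described in T47D cells, together with the RNA level of the gene nearest to each site. The sites were chosen from the deposited list of PR binding sites by their score and position alone. A member had a score under 150, a midpoint outside every locus of the deposited transcript tables, a distance of more than 1 kb from the start of any protein-coding GENCODE transcript, and a nearest locus edge at most 50 kb away. Of 11181 sites, 2701 (24.2%) met this rule. They are called the intergenic sites here.

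T47D is an established human breast cancer cell line of luminal type that expresses the PR, used here at passages 5-8, and R5020 (promegestone) is a synthetic progestin. The ChIP-seq library was prepared from cells that had received R5020 at 10 nM for 1 h, using an antibody against the PR, and the input DNA served the authors as its control. The series holds no ChIP-seq library from vehicle-treated cells. Before harvest, the cells for ChIP were kept longer in charcoal-stripped serum than those for RNA. The RNA-seq libraries came from cells treated for 3 h with 10 nM R5020 or with the vehicle, ethanol (EtOH), and both were single libraries. All cells were of the T47D line. Each condition had 1 library, so the differences below carry no replicate check and no p-value from this re-analysis, and each one compares 2 libraries. The study gave p-values of its own. It also measured some genes by RT-qPCR in biological replicates, among them FOXA1, NET1, FGD4 and AKAP13. In bulk RNA a change in the mix of cells and a change in RNA per cell cannot be told apart. Of 9 luminal markers, 7 reached 1 FPKM with EtOH and 9 with R5020. The other two, KRT8 and KRT18, were listed at 0 in EtOH, where Cufflinks gave the status of a failed estimate. All markers of basal or mesenchymal cells, leukocytes and endothelium were below an FPKM of 1 in both libraries, and of the fibroblast markers only COL1A1 was above it (5.12 in EtOH and 3.31 in R5020).

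The PR is a steroid receptor that, once it has bound a progestin, binds DNA as a dimer. Its hormone response element is a palindrome of a pair of arms separated by a short spacer, which the glucocorticoid, androgen and mineralocorticoid receptors also recognise. Steroid receptors bind largely outside promoters, in enhancers that may act on genes at a distance and that other factors, such as the forkhead protein FOXA1 and GATA3 in luminal breast cells, keep accessible. The nearest gene is a common first guess at the target of such a site, but it need not be the target.

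The palindrome was searched on both strands as GNACA, any 3 bases, and TGTNC, where N is any base. It was found in the 300-base window at the midpoint of 57 of the 2701 intergenic sites. Of these 57 sites, 13 had a nearest gene of at least 1 FPKM in either library that passed 1.5-fold between R5020 and EtOH. The fold was taken after 1 was added to each FPKM. Over all 2701 intergenic sites, 188 had a nearest gene that was higher with R5020 by this rule and 92 one that was lower. Windows of 80 bases around the match are shown for 9 of the 13 sites, since they carry both the DNA element and a change of the nearest gene. Of the other windows, 2 overlap an annotated exon or a locus, and none of them is printed. Sites were picked for this display after their values were known. Sequences are the plus strand of GRCh37 (hg19), and capitals mark the palindrome.
SLC6A6 (chr3:14420968-14421047): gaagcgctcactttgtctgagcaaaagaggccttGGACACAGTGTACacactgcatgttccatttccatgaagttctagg
ZNF57 (chr19:2893785-2893864): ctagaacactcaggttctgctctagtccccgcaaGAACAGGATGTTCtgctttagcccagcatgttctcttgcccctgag
ARHGAP26 (chr5:142132933-142133012): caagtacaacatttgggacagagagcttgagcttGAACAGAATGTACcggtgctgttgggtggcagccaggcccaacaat
ABLIM3 (chr5:148514092-148514171): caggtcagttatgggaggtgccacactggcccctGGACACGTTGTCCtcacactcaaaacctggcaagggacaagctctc
GPR110 (chr6:47015814-47015893): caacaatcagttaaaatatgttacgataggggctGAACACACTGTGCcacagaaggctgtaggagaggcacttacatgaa
MCL1 (chr1:150540685-150540764): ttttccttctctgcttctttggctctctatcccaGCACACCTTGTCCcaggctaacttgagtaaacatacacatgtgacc
GTPBP4 (chr10:993396-993475): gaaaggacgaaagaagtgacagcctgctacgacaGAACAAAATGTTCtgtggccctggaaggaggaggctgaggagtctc
TNK2 upstream (chr3:195641781-195641860): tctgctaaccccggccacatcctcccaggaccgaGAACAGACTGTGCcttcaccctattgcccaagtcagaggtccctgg
TNK2 downstream (chr3:195566722-195566801): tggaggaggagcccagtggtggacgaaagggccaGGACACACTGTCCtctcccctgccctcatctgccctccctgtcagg

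In the first 7 of these windows, from SLC6A6 to GTPBP4, the nearest gene was higher with R5020. SLC6A6, a taurine transporter, measured 8.15 FPKM with EtOH and 18.5 FPKM with R5020, with the site 23.0 kb upstream at a score of 141.98. It was nearest to 3 further intergenic sites. ARHGAP26, a GTPase-activating protein of small GTPases, had 0.704 and 2.46, with the site 17.4 kb upstream. MCL1, an inhibitor of apoptosis of the BCL2 family, had 37.6 and 59.9, with the site 6.22 kb beyond the end of its deposited locus but inside the MCL1 gene as GENCODE annotates it. GPR110, an adhesion G protein-coupled receptor, had 1.99 and 4.85, with the site 5.76 kb upstream and no PR site of another class within 50 kb. ABLIM3 (1.42 and 3.86), ZNF57 (0.966 and 3.07) and GTPBP4 (17.8 and 28.3) had sites 6.95, 6.96 and 40.9 kb upstream. The last 2 windows lie near a gene that was lower. TNK2, a non-receptor tyrosine kinase, measured 12.5 FPKM with EtOH and 7.70 FPKM with R5020 and a palindrome in 2 of its 4 nearest intergenic sites, 6.07 kb upstream and 23.6 kb downstream. PARD6B, a cell polarity protein whose window is not printed, was also lower and had 13.5 and 7.87, with the site 9.63 kb upstream at a score of 146.19.

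For comparison, windows of 80 bases at the midpoint of the highest-scoring intergenic site are shown for the genes with the largest rise and the largest fall with R5020, as far as they are printed here (6 rises and 5 falls). None of these 11 sites held the palindrome over its whole deposited width. Capitals mark the half-site AGAACA, one arm of the palindrome, on either strand. The first 6 windows belong to genes that were higher with R5020.
IL20RA (chr6:137368247-137368326): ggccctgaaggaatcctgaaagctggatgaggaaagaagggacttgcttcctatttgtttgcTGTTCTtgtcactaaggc
NET1 (chr10:5512194-5512273): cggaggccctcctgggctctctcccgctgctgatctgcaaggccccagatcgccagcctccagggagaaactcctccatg
PFKFB3 (chr10:6182293-6182372): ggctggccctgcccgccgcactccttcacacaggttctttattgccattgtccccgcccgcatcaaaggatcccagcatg
TIPARP (chr3:156436734-156436813): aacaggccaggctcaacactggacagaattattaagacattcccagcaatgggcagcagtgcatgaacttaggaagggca
CCND1 (chr11:69451740-69451819): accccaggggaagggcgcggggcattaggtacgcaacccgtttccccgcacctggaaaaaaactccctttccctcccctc
GREB1 (chr2:11648711-11648790): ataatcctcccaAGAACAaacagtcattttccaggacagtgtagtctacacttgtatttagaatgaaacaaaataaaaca

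The next 5 windows belong to genes that were lower with R5020, and none holds the half-site.
FOXA1 (chr14:38052972-38053051): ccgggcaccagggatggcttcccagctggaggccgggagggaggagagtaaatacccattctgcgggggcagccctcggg
CLDN4 (chr7:73247188-73247267): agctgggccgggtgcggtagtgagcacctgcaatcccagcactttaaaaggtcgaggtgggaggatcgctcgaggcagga
CLDN3 (chr7:73182903-73182982): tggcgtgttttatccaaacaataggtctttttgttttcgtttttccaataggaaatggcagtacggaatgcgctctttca
PPDPF (chr20:62149003-62149082): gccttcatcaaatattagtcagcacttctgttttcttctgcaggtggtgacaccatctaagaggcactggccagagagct
EPHB3 (chr3:184328265-184328344): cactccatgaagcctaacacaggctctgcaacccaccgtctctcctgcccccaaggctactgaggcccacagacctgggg

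The score, given by MACS, grows with the significance of a site over the input DNA. Among the intergenic sites it ran from 50.01 to 149.57 with a median of 72.3, and 1500 sites scored under 75, 875 from 75 to 100 and 326 from 100 to 150. Because the score chose the members, this range is a description. The sites were 175 to 1453 bases wide with a median of 455. Their midpoints lay 0.003 to 49.985 kb from the nearest locus edge, with a median of 10.9 kb and quartiles of 4.08 and 24.0 kb. By the strand of the nearest gene 1251 sites (46.3%) lay upstream and 1218 (45.1%) downstream, and for 232 sites the strand could not be assigned. Another PR site of any class lay within 5 kb of 750 intergenic sites (27.8%) and within 1 kb of 187. The sites were densest on chromosome 17 (217 sites, 2.67 per Mb), chromosome 20 (162 sites, 2.57 per Mb) and chromosome 11 (251 sites, 1.86 per Mb). They were 23.1%, 26.5% and 24.2% of all PR sites on these chromosomes, near the 24.2% of the whole list, so the density is not particular to the intergenic sites.

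Whether a site counts as intergenic depends on the annotation. Against the larger GENCODE release 44 annotation, 1764 midpoints (65.3%) lay in no gene, 456 (16.9%) in a long noncoding RNA gene, 429 (15.9%) in a protein-coding gene and 52 in a gene of another kind. The 11 sites nearest to KIAA0182, now named GSE1, all lie upstream of the deposited locus and all lie inside the longer GSE1 gene of GENCODE. The sites just inside the score limit belonged to BIRC5 and IL20RA (149.57 each) and UHRF2 (149.54), and those just outside to GSTP1 (151.71), LITAF (153.81) and FADD (154.78). At the distance limit, the last sites inside were those of PVRL1, METRNL and SFTA1P (49.985, 49.941 and 49.927 kb) and the first outside those of CD44, SFRP1 and POM121L12 (50.004, 50.083 and 50.104 kb). At the limit on transcript starts, KIAA0182, CABP4 and DPP7 were inside (1.005, 1.011 and 1.012 kb) and MIR3178, CCDC125 and CDK13 outside (0.995, 0.990 and 0.987 kb).

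The 57 windows with the palindrome were 2.11% of the intergenic sites (Wilson 95% interval 1.63 to 2.72%). In windows of the same length 5 kb to the left and to the right of the same midpoints, the shares were 0.296% (0.150 to 0.583%) and 0.518% (0.309 to 0.868%). Among all other deposited sites 1.82% of 8477 windows held it. The matches gathered at the midpoints, with 17 in the 50 bases to the left of the midpoint and 12 in the 50 bases to the right, against 0 to 5 in each bin more than 200 bases away. The share grew with the score, from 0.867% (0.507 to 1.48%) at scores of 50 to 75 to 3.09% (2.13 to 4.45%) at 75 to 100 and 5.21% (3.28 to 8.19%) at 100 to 150, and it was 8.52% (6.27 to 11.5%) among the 446 sites of score 150 or more on the reference chromosomes. It changed little with distance from the gene, from 2.35% within 5 kb to 1.58% at 25 to 50 kb, with overlapping intervals. Most intergenic sites thus held no palindrome of these letters in the window, which says nothing about looser forms of the element.

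**Figure D1:**
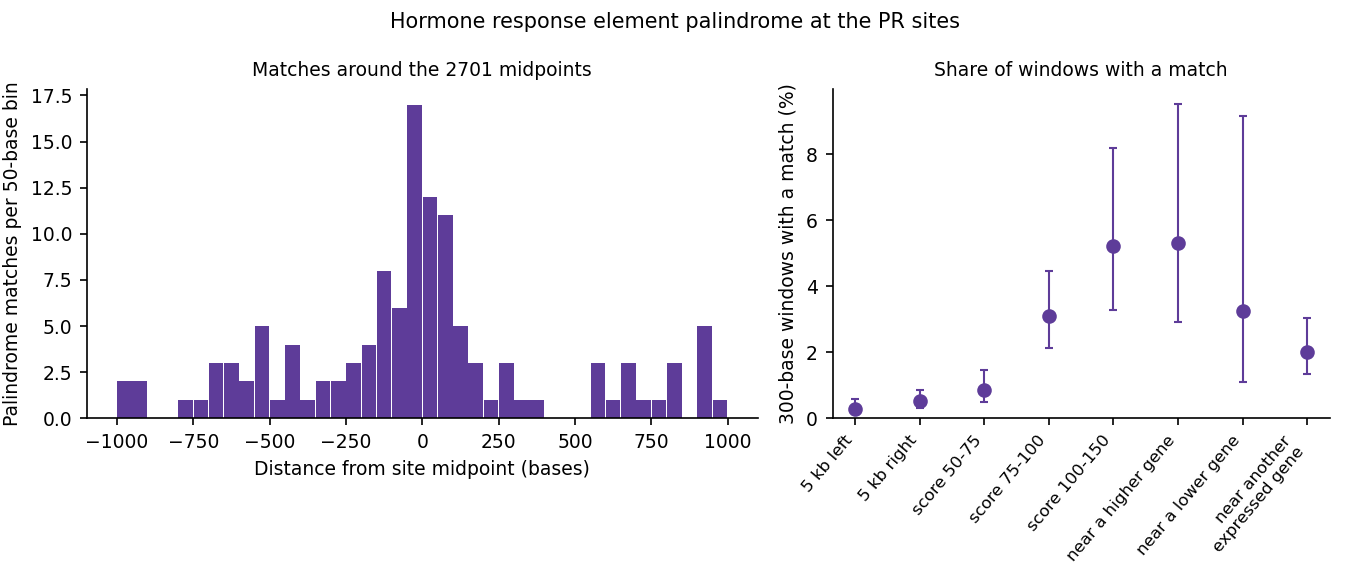
Left, number of palindrome matches in 50-base bins by distance from the midpoint of the 2701 intergenic sites. Right, share of 300-base windows with a match, with Wilson 95% intervals, in the windows 5 kb to either side, by score, and by the change of the nearest gene. The share was 0.867% at scores of 50 to 75 and 5.21% at 100 to 150, against 0.296% and 0.518% in the windows to either side.

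The other motifs did not gather at the sites in the same way. The half-site AGAACA was in 18.3% of the windows at the intergenic sites (16.9 to 19.8%) and in 19.2% and 18.8% of those to the left and right. It can be an arm of the palindrome, and 18 palindrome matches held it. The forkhead motif TGTTTAC was in 2.89% against 3.41% and 3.18%, and the AP-1 motif TGANTCA in 7.63% against 8.29% and 8.00%. The GATA motif AGATAA was less frequent at the sites, in 8.55% (7.56 to 9.67%) against 14.7% (13.4 to 16.1%) and 13.3% (12.1 to 14.6%). The NF1 half-site TTGGCA was in 15.1% (13.8 to 16.5%) against 13.3% (12.1 to 14.6%) and 12.9% (11.7 to 14.2%), with overlapping intervals. The estrogen response element, GGTCA, any 3 bases and TGACC, was in 1 window at the sites and in 3 on each side. Base composition moved with these shares. The median GC content was 55.3% at the sites and 49.0% and 48.7% to the left and right, and its part in the differences was not tested.

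The question put to the RNA was how the gene nearest to each intergenic site differed between R5020 and EtOH. The 2701 sites shared 1982 nearest genes, each counted once. FPKM, the fragments per kilobase of transcript scaled to all mapped fragments, was summed over the transcripts of a gene, and its change is the log2 ratio of R5020 to EtOH after 1 was added to each value. Genes with at least 1 FPKM in either library were retained and are called expressed. Of the nearest genes 1021 (51.5%) were expressed, against 47.3% of all 23287 symbols, and 396 were listed at 0 in both libraries. In all, 1329 sites had a nearest gene that was not expressed.

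Among the 1021 expressed nearest genes, 133 (13.03%, Wilson 95% interval 11.1 to 15.2%) were at least 1.5-fold higher with R5020, where 7.67% of all 11018 expressed genes were. A further 58 (5.68%, 4.42 to 7.27%) were at least 1.5-fold lower, where 4.14% of all expressed genes were. The share of higher genes thus lay above the background. The share of lower genes lay above it by a smaller margin, and its interval overlapped that of all expressed genes (3.78 to 4.53%). At a threshold of 2-fold the lower genes fell below the background (12 genes, 1.18% against 1.31%), and with a pseudocount of 0.1 they numbered 95 (9.30% against 7.14%). The median change was 0.03 on the log2 scale against 0.01 over all expressed genes, so most nearest genes were near no change. The intervals hold counting error alone, as if genes were independent, which neighbours are not. Seen from the genes, 15.7% of the 845 higher genes (13.4 to 18.3%) and 12.7% of the 456 lower genes (9.97 to 16.1%) were nearest to an intergenic site, against 8.54% of the 9717 other expressed genes (8.00 to 9.11%). Of the called genes 32 had an FPKM under 1 in 1 library, and 2 were listed at 0 in 1 library, KRT18 in EtOH, the failed estimate named above, and ARHGEF26-AS1 in R5020. Without KRT18 the count of higher genes was 132. The reads behind the FPKM values, taken as coverage times length over 50 nt, came to 36203604 for R5020 and 35151493 for EtOH. These are estimates of reads over the deposited transcripts, not the mapped read totals of the study, which are larger and in the other order.

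**Figure D2:**
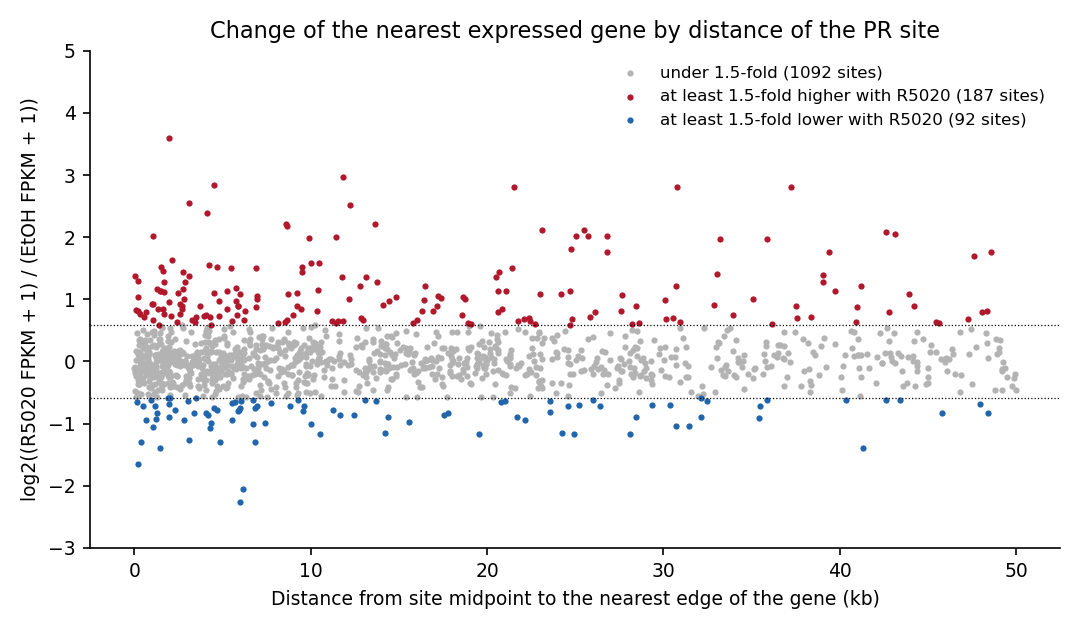
Change of the nearest expressed gene (log2 ratio of R5020 to EtOH with 1 added to each FPKM) against the distance from the site midpoint to the edge of that gene, 1 point per intergenic site, without the site of KRT18. Points past 1.5-fold (dotted lines), 187 higher and 92 lower, are spread over the whole range of distances among 1092 points under it.

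The share of higher genes was no larger at the closest sites. A gene counts in each distance class in which it has a site, so these classes share genes. At least 1.5-fold higher were 12.4% of expressed genes with a site within 5 kb (9.43 to 16.1%), 11.4% at 5 to 10 kb (7.82 to 16.2%), 13.9% at 10 to 25 kb (10.7 to 18.0%) and 16.7% at 25 to 50 kb (12.5 to 21.9%). The lower genes were 6.74%, 8.64%, 4.93% and 5.83% in the same order, and in both directions the intervals of all distance classes overlapped. Genes with the farther sites were longer, with a median extent of 56.7 kb at 25 to 50 kb against 26.8 kb within 5 kb, and the part of gene length was not tested.

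Genes with intergenic sites only upstream were higher in 15.9% of 464 cases (12.9 to 19.6%) and those with sites only downstream in 10.1% of 475 (7.71 to 13.1%), and the intervals just overlapped. Lower genes were 6.25% and 4.63% of these. The share of higher genes also went with the score. A gene counts in each score class in which it has a site, so these classes share genes. Of expressed genes with a site of score 50 to 75, 11.6% were higher (9.29 to 14.3%), with a score of 75 to 100, 15.2% (11.96 to 19.2%), and with a score of 100 to 150, 20.1% (14.6 to 27.0%), the last on 159 genes. The share of lower genes stayed at 6.01%, 5.77% and 5.66% in these classes. Genes nearest to 1, 2 and at least 3 intergenic sites were higher in 12.03%, 17.6% and 15.1% of cases and lower in 4.96%, 7.04% and 11.0%, with overlapping intervals.

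Genes nearest to a site with the palindrome were higher more often than genes nearest to a site without it. A gene nearest to both kinds of site counts on both sides, so these groups share genes. The 34 expressed genes nearest to a site with it included 10 higher ones (29.4%, 16.8 to 46.2%) and 2 lower ones. The 996 expressed genes nearest to a site without it included 127 higher ones (12.8%, 10.8 to 14.97%) and 57 lower ones (5.72%). Over all expressed genes 7.67% were higher and 4.14% lower. Counted by sites, the palindrome was in 5.32% of the 188 sites near a higher gene (2.91 to 9.51%), 3.26% of the 92 near a lower gene (1.12 to 9.15%) and 2.01% of the 1092 near another expressed gene (1.33 to 3.03%). These intervals by sites overlapped. The score moved with the palindrome, at a median of 86.1 in sites with it and 71.9 without, and its part was not tested.

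**Figure D3:**
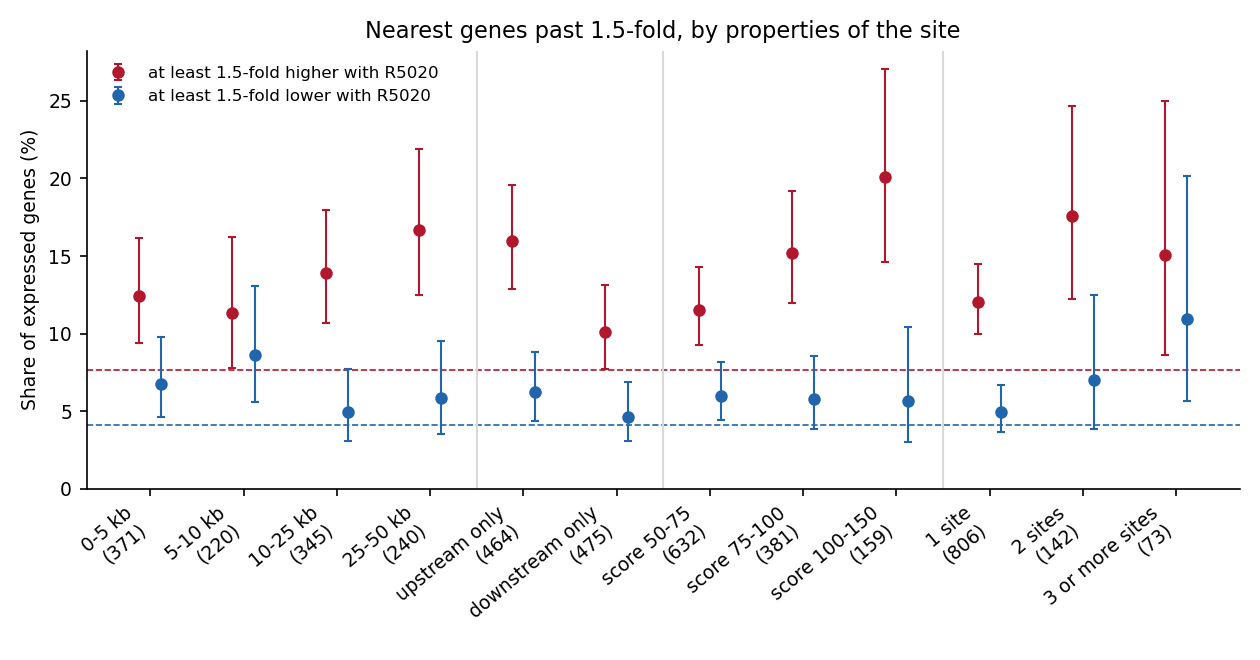
Share of expressed nearest genes at least 1.5-fold higher (red) or lower (blue) with R5020, by distance, side, score and number of intergenic sites, with Wilson 95% intervals and the number of expressed genes in parentheses. Dashed lines give the shares over all expressed genes, 7.67% and 4.14%, and the share of higher genes goes from 11.6% at scores of 50 to 75 to 20.1% at 100 to 150. A gene counts in each distance and score class in which it has a site.

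The other classes of PR sites give the frame for these shares. A gene can count in several of the classes. Expressed genes at promoter sites, within 1 kb of a protein-coding start, were higher in 10.9% of 1116 cases (9.23 to 12.9%), and those that held a site inside their locus in 11.8% of 1683 (10.4 to 13.5%). Genes nearest to intergenic sites more than 50 kb away were higher in 16.5% of 346 cases (12.9 to 20.7%). All these intervals overlapped that of the intergenic sites near genes. Apart stood the sites of score 150 or more, whose genes were higher in 31.4% of 274 cases (26.2 to 37.1%) and lower in 2.92%. Expressed genes with no PR site of any kind within 50 kb were higher in 6.24% of 5225 cases (5.62 to 6.93%) and lower in 3.41%. Many nearest genes also had other PR sites at hand. The 379 expressed nearest genes whose only sites within 50 kb were intergenic ones were higher in 10.0% of cases (7.39 to 13.5%) and lower in 4.22%, and the 642 that also had a site of another class in 14.8% (12.3 to 17.8%) and 6.54%. The first interval lies above that of genes with no site, but it holds the 7.67% of all expressed genes. The 4.22% of lower genes was near the 4.14% of all expressed genes. The part of the other sites was not tested further.

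**Figure D4:**
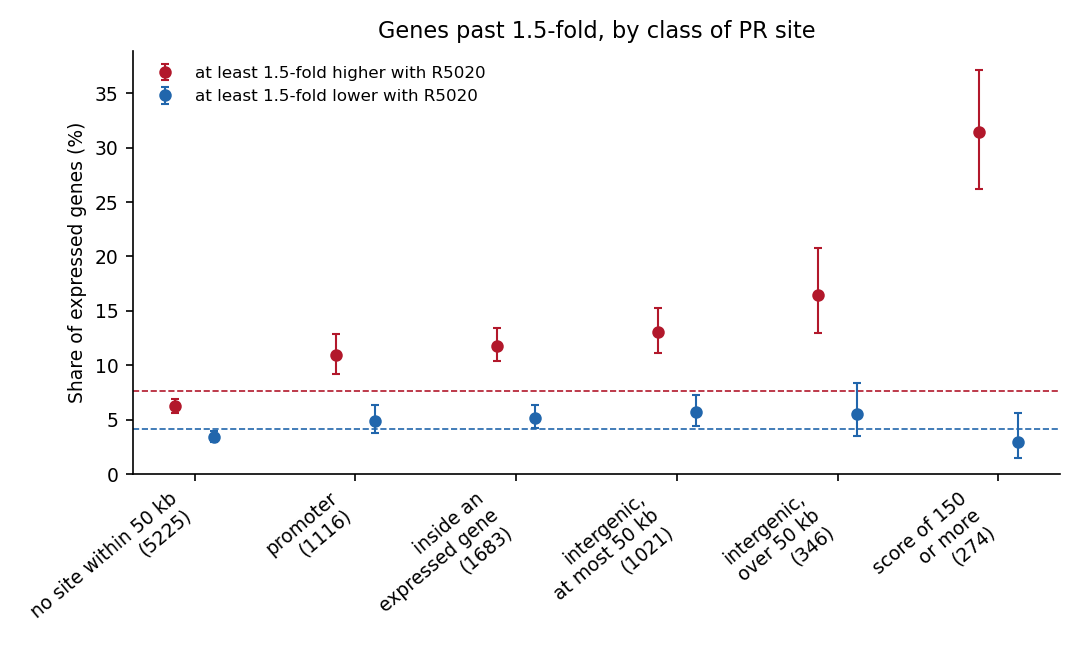
Share of expressed genes at least 1.5-fold higher (red) or lower (blue) with R5020 by class of PR site, with Wilson 95% intervals and the number of expressed genes in parentheses. The genes of the intergenic sites at most 50 kb away (13.03% higher) overlap the promoter (10.9%), inside an expressed gene (11.8%) and over 50 kb (16.5%) classes in their intervals, and sites of score 150 or more (31.4%) lie above.

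The largest rise among nearest genes with at least 1 FPKM in both libraries was that of IL20RA, a receptor subunit for interleukins of the IL-20 family. Its FPKM was 2.09 in EtOH and 36.2 in R5020, a log2 change of 3.59. Its only PR site within 50 kb is the intergenic site chr6:137368050-137368524, 1.99 kb upstream, which lies just under the score limit at 149.57 and holds a half-site but no palindrome. NET1, an exchange factor that activates RhoA, measured 6.53 FPKM with EtOH and 57.7 FPKM with R5020 (log2 change 2.96), with an intergenic site 11.8 kb downstream at a score of 66.66 and 3 sites of other classes within 50 kb. PFKFB3, an enzyme that sets the level of the glycolytic activator fructose bisphosphate, had 6.57 and 53.1 (2.84), with the intergenic site 4.51 kb upstream and 6 sites of other classes. For these 3 genes the R5020 library was far above the EtOH library, but only for IL20RA was the intergenic site the sole one nearby.

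Hormone and cell cycle genes were among the next. TIPARP, an ADP-ribosyltransferase that represses the aryl hydrocarbon receptor, measured 4.37 FPKM with EtOH and 29.9 FPKM with R5020 (log2 change 2.52) and a site 12.2 kb downstream. CCND1, cyclin D1, had 22.2 and 120.4 (2.38) and a site of score 63.24 lying 4.09 kb upstream. GREB1, a hormone-induced coregulator of the estrogen receptor, had 8.44 and 39.9 (2.12) and a pair of sites 23.1 and 25.5 kb upstream, both inside the longer GREB1 gene of GENCODE. GRHL2, an epithelial transcription factor, had 14.8 and 72.3 (2.21) with sites 8.60 and 13.7 kb upstream. The scores of the intergenic sites at these genes were moderate, none above 89.39. Within 50 kb, GRHL2 also had 3 sites of other classes, and TIPARP, CCND1 and GREB1 had 1 each.

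C16orf80, now CFAP20, a protein of cilia, measured 7.14 FPKM with EtOH and 35.9 FPKM with R5020 (log2 change 2.18) and a site 8.66 kb downstream. NDRG1, a stress-responsive protein, had 5.34 and 25.2 (2.05) and a site 43.1 kb upstream. Within 50 kb, NDRG1 also had 4 sites of other classes and C16orf80 had 1. Both genes rose in the R5020 library from a moderate FPKM.

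FOXA1, the forkhead factor that opens chromatin for steroid receptors in luminal cells, showed the largest fall among nearest genes reaching 1 FPKM in both libraries. Its FPKM was 64.3 in EtOH and 14.7 in R5020, a log2 change of -2.05. The intergenic site chr14:38052726-38053297, of score 121.31, lies 6.18 kb downstream, and 1 site of another class is within 50 kb. GATA3, its partner factor, had 253.2 and 126.3 (log2 change -0.998), with a site of score 99.19 lying 4.32 kb downstream and 4 sites of other classes. Both genes keep a high FPKM in EtOH and were lower after the progestin.

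Claudins, the membrane proteins of tight junctions, made up 3 of the 10 largest falls. CLDN4 measured 52.0 FPKM with EtOH and 15.9 FPKM with R5020 (log2 change -1.65), with a narrow site of score 134.92 lying 0.213 kb past its end. CLDN3, its neighbour on chromosome 7, had 30.8 and 11.9 (-1.30) and was nearest to 3 intergenic sites, 0.384, 4.86 and 6.85 kb downstream. CLDN1, on chromosome 3, had 76.0 and 35.7 (-1.07) and a site 4.27 kb upstream, inside CLDN16 as GENCODE annotates it. Looked up after these values were known, the expressed claudins numbered 6. Of these, 3 were lower, the ones named above, and 2 were higher, CLDN8 (1.31 and 4.15) and CLDN12 (8.32 and 13.4). CLDN7, the remaining one, had 8.31 and 6.17. Over all expressed genes 7.67% were higher and 4.14% lower. CLDN14 and CLDN23 were also nearest to an intergenic site but were not expressed.

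Of the other falls, PPDPF measured 561.5 FPKM with EtOH and 234.4 FPKM with R5020 (log2 change -1.26), with a site 3.09 kb upstream and 16 sites of other classes within 50 kb. EPHB3, an Eph receptor tyrosine kinase, had 5.56 and 1.92 (-1.17) and was nearest to 4 intergenic sites, a pair on each side. It also had 4 sites of other classes within 50 kb. P2RY2, a receptor for extracellular nucleotides, had 4.76 and 1.60 (-1.15), but its transcript with the highest FPKM gave only -0.56. LURAP1L (66.7 and 32.0), KAZALD1 (13.2 and 6.03) and FAM84B (19.4 and 9.20) had log2 changes of -1.04, -1.01 and -0.999. LURAP1L was nearest to a pair of intergenic sites about 31 kb upstream with the same score (84.44) and had no PR site of another class within 50 kb.

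**Figure D5:**
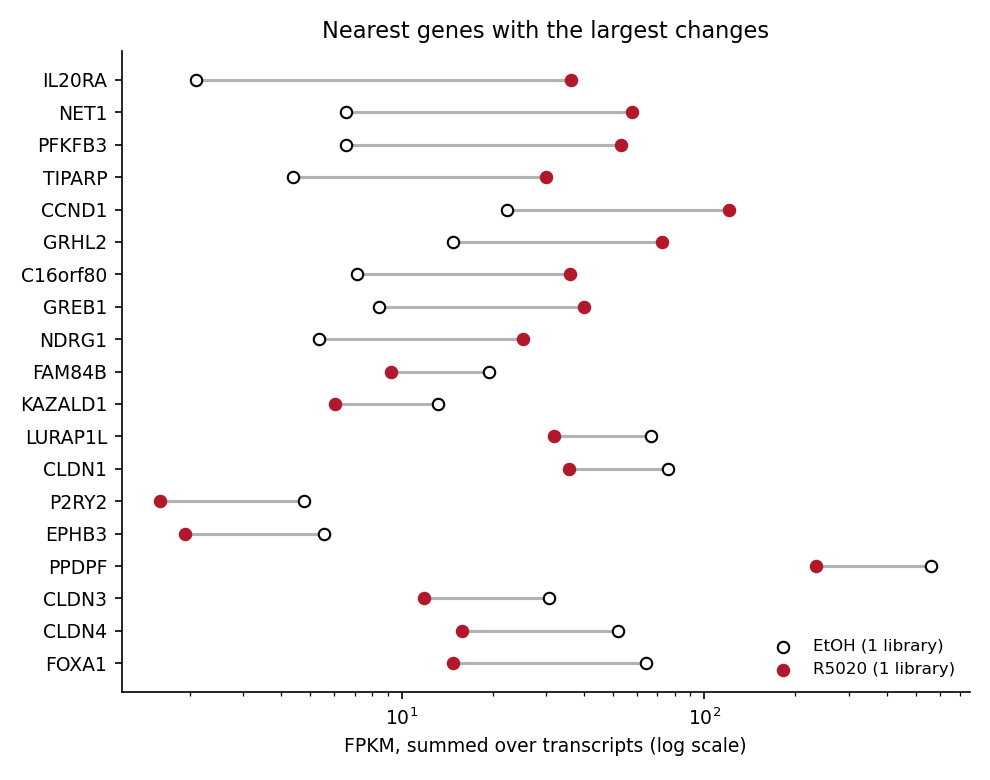
FPKM in the EtOH library (open circles) and the R5020 library (filled circles) on a log scale for 9 of the nearest genes with the 10 largest rises and for those with the 10 largest falls among genes with at least 1 FPKM in both libraries. IL20RA goes from 2.09 to 36.2 and FOXA1 from 64.3 to 14.7, with 1 library behind each circle.

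The genes with the most intergenic sites were not those with the largest changes. KIAA0182 (GSE1) and MAFA were each nearest to 11 intergenic sites. The FPKM of KIAA0182 was 46.4 in EtOH and 64.5 in R5020 (log2 change 0.47), and it had a further 40 sites of other classes within 50 kb. MAFA, a large MAF transcription factor, had 3.21 and 1.82 (-0.58), just short of 1.5-fold with the pseudocount of 1 and past it with one of 0.1 (-0.78). CBFA2T3, a transcriptional corepressor, was nearest to 8 intergenic sites with scores of 53.47 to 102.65 and rose past 1.5-fold, from 7.06 to 14.0 (0.90). UNCX, a homeobox gene with 8 sites, was listed at 0 in both libraries, LOC442497 with 8 sites was at 0.150 and 0.263, and SLC6A19, an amino acid transporter with 7 sites, was listed at 0 in EtOH and at 0.0168 in R5020. Of the 6 genes with the most sites, 3 were therefore not expressed.

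Among the genes of the 5 highest-scoring intergenic sites, only IL20RA passed 1.5-fold. BIRC5 (survivin), with the site chr17:76207005-76207631 of score 149.57 lying 2.96 kb upstream, measured 14.0 FPKM with EtOH and 14.9 FPKM with R5020. UHRF2, a ubiquitin ligase with a pair of narrow sites of scores 149.54 and 121.80 about 23 kb upstream, had 3.67 and 5.08. ABCC11, a transporter, had 10.1 and 11.0 with a site of score 148.26 lying 1.39 kb downstream, and MMP8, a collagenase, was listed at 0 in both libraries with a site of score 147.27.

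Genes known to respond to progestins or glucocorticoids were taken as a list of 30, of which 26 were expressed, 20 higher and 0 lower. Of these, 8 were nearest to an intergenic site, and 6 of the 8 were higher, at a median log2 change of 1.66 over the 8 against 1.62 over the 26. Besides CCND1 and TIPARP these were NFKBIA, the inhibitor of NF-kB (FPKM 7.82 in EtOH and 34.5 in R5020, with 3 sites 25.05 to 26.8 kb away on both sides), KLF4, a zinc finger factor (3.56 and 14.5, with 3 sites 26.8 to 48.6 kb away), STAT5A, a transducer of prolactin signals (0.183 and 2.45, with a site 4.22 kb upstream inside STAT5B), and BCL6, a repressor (10.5 and 17.3, with a site 1.03 kb upstream). Within 50 kb, STAT5A also had 4 sites of other classes, and NFKBIA, KLF4 and BCL6 had 1 each. CEBPB (3.54 and 2.66) and the clock gene PER1 (0.856 and 1.57) did not pass 1.5-fold, and the PER1 site held a palindrome. PER1 stayed under the threshold only through the pseudocount of 1, and its log2 change was 0.80 with a pseudocount of 0.1. FKBP5, a chaperone of steroid receptors, had 15.9 and 86.6, with 1 intergenic site and 4 others within 50 kb, but it was the nearest gene of none of the intergenic sites. The list held mostly higher genes with or without an intergenic site, so the count of 6 of 8 reads beside 20 of 26. It was chosen with earlier results of these data known, and 7.67% of all expressed genes were higher.

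The luminal transcription factors, 16 genes that were all expressed, showed 2 higher and 8 lower genes. Over all expressed genes 7.67% were higher and 4.14% lower, and this list was chosen with earlier results of these data known. The 8 of them nearest to an intergenic site held 1 higher gene, GRHL2, and 5 lower ones, with a median log2 change of -0.90 against -0.56 over the 16. Among the factors not nearest to such a site, TFAP2A (-0.89), ESR1 (-0.61) and PGR (-0.60) were also lower, and KLF5 (1.39) was higher. Next to FOXA1 and GATA3, the ETS factors ELF3 (FPKM 3.52 in EtOH and 0.722 in R5020), EHF (32.2 and 16.4) and SPDEF (22.9 and 12.2) were lower, with sites 1.45 kb downstream, 5.56 kb downstream and 12.4 kb upstream. Within 50 kb, SPDEF also had 5 sites of other classes, ELF3 had 1 and EHF had 0. ELF5, a factor of the milk-producing lineage nearest to 3 sites, had 37.9 and 26.3 (-0.51), and TBX3, a T-box repressor nearest to 2 sites of which 1 held a palindrome, had 3.22 and 1.98 (-0.50, and -0.67 with a pseudocount of 0.1). EHF and ELF5 lie close together on chromosome 11, so their sites share a neighbourhood.

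Growth factor feedback genes numbered 10 expressed of 18 listed, with 5 higher and 2 lower, beside 7.67% and 4.14% of all expressed genes. This list too was chosen with earlier results of these data known. Only 2 of its 10 expressed genes were nearest to an intergenic site. SPRED2, an inhibitor of Ras signalling, measured 3.65 FPKM with EtOH and 9.37 FPKM with R5020 (1.16), with a site of score 143.88 lying 10.4 kb downstream, and TRIB1, a pseudokinase, had 2.07 and 2.59 (0.23). SPRY4, an inhibitor of receptor tyrosine kinases, was nearest to 5 intergenic sites and not expressed (0.0428 and 0.263).

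Small GTPases and their regulators were listed by the study on these samples, so their direction is not independent evidence. Over all expressed genes 7.67% were higher and 4.14% lower. Of 54 expressed members 37 were higher and 10 lower, and of the 8 nearest to an intergenic site 7 were higher and 0 lower. Besides NET1 and ARHGAP26 these included RAB4A, a GTPase of endosome recycling (FPKM 15.7 in EtOH and 35.5 in R5020), RAP2B (5.14 and 12.5), STARD13, a GTPase-activating protein (2.04 and 5.08) and ARHGEF37 (3.07 and 5.498), while IQSEC1, an exchange factor for ARF6 nearest to 4 sites that GENCODE places inside the gene, had 4.06 and 2.60 (-0.49, and -0.62 with a pseudocount of 0.1). FGD4 (2.57 and 10.2), an exchange factor for CDC42, had its closest PR site 55.4 kb from its locus, just beyond the limit of 50 kb, at a score of 148.58. AKAP13 (3.07 and 8.06), an exchange factor for RhoA, had 2 sites of other classes within 50 kb, 1 inside its locus (score 80.34) and 1 at 49.2 kb with a score of 328.46, too high for the rule.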

How the data were processed

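The RNA-seq and PR ChIP-seq data of T47D cells were analysed, with 1 library per condition. Per the methods of the study, RNA reads were aligned to hg19 with TopHat and quantified with Cufflinks, and ChIP-seq reads were aligned with Bowtie 1.1.2, kept when uniquely mapped and called with MACS against input DNA. The authors deposited FPKM values per RefSeq transcript with an interval, a status and a coverage, and sites with a score, all at least 50. The deposited coverage is a signal used here only for depth. The methods name an Ensembl and the results a RefSeq annotation, and the deposited identifiers are RefSeq. The site list holds no read counts, so the precision of single sites could not be computed. The input library was not analysed here.

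FPKM was summed over the transcripts of a symbol, a step of this re-analysis, as was the pseudocount of 1. The filter of 1 FPKM in either library and the 1.5-fold threshold follow the methods of the study, without its p-value. Distances run from the site midpoint to the nearest locus edge, and 14 sites had a tie, which went to the first symbol in the alphabet. Strands came from GENCODE release 44 on GRCh37 by symbol or, through RefSeq synonyms, older symbol, with overlap required, and matched for 2469 sites. Of 9687 expressed symbols found in GENCODE, 99.8% overlapped the gene of that name. The motifs were searched in 300-base windows on both strands, and 3 sites off the reference chromosomes were left out. Named genes were the 10 largest rises and falls among expressed nearest genes with at least 1 FPKM in both libraries, the 6 with the most sites, those of the 5 highest scores, FKBP5, FGD4, AKAP13 and list members nearest to a site, and some genes and windows are not reported here. The members and gene lists were chosen with earlier results of these data known. Shares carry Wilson 95% intervals. Alternatives were other pseudocounts, filters, thresholds, transcript choices, scalings, distances, scores and windows. The scripts were tested on simulated data. Python 3.11.15, pandas 2.3.3, numpy 2.4.6, scipy 1.17.1 and pysam were used.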

Additional observations from a re-analysis of the deposited data

How the results depend on the processing

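No paired analysis was possible because each condition has 1 library, and no replicate could be left out for the same reason. The share of higher genes among the nearest genes stayed above that of all expressed genes under each of the 14 alternatives, and the share of lower genes under 13. The exception was a threshold of 2-fold, where 65 nearest genes were higher (6.37% against 3.43%) and 12 lower (1.18% against 1.31%). With a pseudocount of 0.1, 95 genes were lower (9.30% against 7.14%). With sites of score 100 or more, 326 sites were left. Of their 159 expressed nearest genes, 32 were higher (20.1% against 7.67%) and 9 lower (5.66% against 4.14%). Outside every GENCODE gene, an alternative added after seeing the data, 1764 sites were left. Of their 692 expressed nearest genes, 94 were higher (13.6% against 7.67%) and 46 lower (6.65% against 4.14%). These subsets are smaller by construction.

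Motif shares moved with the length searched. In 200-base windows they were 1.63% for the palindrome, 12.995% for the half-site, 1.93% for forkhead, 5.78% for GATA, 5.37% for AP-1 and 11.1% for NF1, and over whole sites 25.7% for the half-site, 4.11% for forkhead, 12.995% for GATA, 11.6% for AP-1 and 21.1% for NF1. At scores of 100 or more they were 5.21% for the palindrome, 24.2% for the half-site, 4.91% for forkhead, 16.6% for NF1 and 0.307% for the estrogen response element, the last on 1 window. The cause of the differences by score was not tested.

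Of 177 recomputed changes of named genes, 0 turned direction among called genes and 10 crossed 1.5-fold or changed sign below it, mostly at low FPKM with the pseudocount of 0.1. The depth of single values cannot be judged from FPKM, and sites with a score under 50 are not in the list analysed here.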

Other observations

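Several MACS scores recurred among the intergenic sites. The score 90.51 was shared by 62 sites, and 15 scores were each shared by at least 10 sites, 395 sites in all. These sites were narrow, with a median width of 307 bases against 468 for the others. Without them, 120 of 896 expressed nearest genes were higher (13.4% against 7.67%) and 54 lower (6.03% against 4.14%). The palindrome was then in 2.21% of windows. The comparison without these sites was added after the data were seen.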
